A study of Mus musculus with 32 samples.

Results

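Sterol and lipid metabolism was followed through 39 genes in bone marrow-derived macrophages (BMDMs). They comprise 16 enzymes of cholesterol synthesis, 5 genes of the SREBP system, 5 genes of acetyl-CoA supply and sterol transport, 5 genes for the liver X receptors (LXRs) and their targets, the oxysterol enzyme Ch25h, and 7 genes of fatty acid synthesis and desaturation. A probe belonged to the set when its gene name in the scanner files was one of these 39 symbols, the brightest probe stood for each gene, and all 39 were among the 16065 genes tested. BMDMs were grown in M-CSF from the marrow of WT mice (C57BL/6 in the labels, C57BL6/J in the study's methods) and of Ifnar1-/- mice, which lack a chain of the type I interferon receptor in every cell of the body. Both genotypes had an untreated group and groups given 6 h of LPS, of IFNβ, of zVAD, of LPS+zVAD, of IFNβ+zVAD, of LPS+zVAD+Nec-1 or of IFNβ+zVAD+Nec-1. LPS, a ligand of TLR4, was used at 100 ng/mL as the labels state, and the dose of IFNβ there is 1000 U/mL, although the study's text gives other doses; zVAD is a pan-caspase inhibitor and Nec-1 a RipK1 kinase inhibitor. With 8 conditions in each of 2 genotypes there were 16 groups, each of 2 arrays, or 32 arrays. The age of the mice and whether the arrays of a group came from separate animals are not given in the sources used here, so the p-values below measure only the spread between these arrays.

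Cholesterol is built from acetyl-CoA by a long chain of enzymes that passes through mevalonate, isoprenoids, squalene and lanosterol. The genes of this chain are switched on by SREBP2 (encoded by Srebf2), which leaves the endoplasmic reticulum with the escort protein SCAP when membrane sterol is low and is held back there by INSIG proteins when sterol is high. SREBP1 (Srebf1) acts in the same way on genes of fatty acid synthesis. LXRs (Nr1h3 and Nr1h2) are nuclear receptors for oxysterols that switch on cholesterol export through ABCA1 and ABCG1. Ch25h makes the oxysterol 25-hydroxycholesterol, which binds INSIG and restrains SREBP processing, and macrophages are known for inducing Ch25h in response to interferon.

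SREBPs bind short sterol regulatory elements (SREs), usually beside boxes for the factor NF-Y, in the promoters of their targets. Promoter windows, from 250 before to 50 after a gene's start, were available from RefSeq (assembly GRCm38.p6) for 30 of the 39 members. The NF-Y box CCAAT was found on either strand in 21 of these 30 genes (70.0%) and in 41.1% of all 27025 genes with a window. The SRE letters TCACCCCAC were found in 1 member, Hmgcs1 (3.33%), and in 0.614% of all genes, and the looser form TCACNCCAC, which includes the first, in the same member and in 1.44% of all genes. The letters AGGTCA, which are only a part of an LXR element, were present in 5 members (16.7%) against 18.1% of all genes. Whole LXR elements were not searched. The core of the interferon-stimulated response element GAAANNGAA was present in 1 member, Ebp (3.33%), against 9.76%. These are matches of letters on both strands and not tests of binding. The stretches holding the boxes of 5 cholesterol synthesis genes that moved with LPS or lie at the head of the pathway follow, with SRE and NF-Y letters in capitals. They read 5′ to 3′ on the strand of the gene, from GRCm38.p6 chr13:119690171-119690320 (Hmgcs1, + strand), chr13:8885546-8885605 (Idi1, + strand), chr8:122443423-122443502 (Mvd, - strand), chr1:169969206-169969295 (Hsd17b7, - strand) and chr5:4104698-4104757 (Cyp51, - strand).
Hmgcs1: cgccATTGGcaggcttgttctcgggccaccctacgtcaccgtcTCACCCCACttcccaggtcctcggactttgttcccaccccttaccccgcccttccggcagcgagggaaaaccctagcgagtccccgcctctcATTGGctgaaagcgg
Idi1: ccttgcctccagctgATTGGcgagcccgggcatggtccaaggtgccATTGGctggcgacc
Mvd: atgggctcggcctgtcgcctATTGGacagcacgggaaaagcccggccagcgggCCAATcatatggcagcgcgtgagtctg
Hsd17b7: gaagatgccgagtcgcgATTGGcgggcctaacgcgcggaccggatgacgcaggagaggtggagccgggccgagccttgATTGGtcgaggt
Cyp51: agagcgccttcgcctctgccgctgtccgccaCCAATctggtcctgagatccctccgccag
Hmgcs1 carries the SRE between a pair of inverted NF-Y boxes, whereas the stretches of Idi1, Mvd and Hsd17b7 hold a pair of NF-Y boxes without these SRE letters and that of Cyp51 a single NF-Y box.

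The level of each gene is given as quantile-normalized log2 intensity, in which a difference of 1 is a 2-fold difference, and a log2 fold change is given ± its standard error from limma. A member was called changed at a Benjamini-Hochberg adjusted p under 0.05 over all genes tested. Signals were well above background on all 32 arrays for 37 members, on 31 for Fasn and on 20 for Ch25h. Over all probes, 55.0% to 78.1% were well above background on the WT arrays and 44.6% to 61.6% on the Ifnar1-/- arrays. Of the 3 Ifnar1 probes, 2 were lower in Ifnar1-/- cells with no overlap (7.88 to 10.23 in WT against 5.82 to 7.35, and 9.94 to 11.88 against 7.29 to 8.73), and the third overlapped. All 8 macrophage markers on the array were above background on every array. Their summed level, which the brightest of them set, stayed between 19.64 and 20.01 in the 16 groups. Single markers moved more. Fcgr1 lay at 12.3 to 16.73 in WT and 6.81 to 11.83 in Ifnar1-/- arrays, and Mertk at 9.81 to 12.63 and 8.57 to 14.05. The part of these shifts in the results was not tested. The summed level of adipocyte markers stayed between 6.93 and 7.59. The 4 dendritic cell markers, none of which was above background on all arrays, moved with treatment: their summed level was 7.61 in untreated, 10.12 in LPS-treated and 9.22 in IFNβ-treated WT cells, and 7.38 in untreated and 9.1 in LPS-treated Ifnar1-/- cells, and their part in the results was not tested. Each of the 4 slides held the 8 treatments of 1 genotype and 1 replicate number, so a treatment effect lies within slides while genotype and slide cannot be told apart. By the file headers, the WT replicate 1 arrays, the WT replicate 2 arrays and all Ifnar1-/- arrays were each scanned on a separate day. Genotype and scan day therefore cannot be told apart either. Where a fit with the slide as a block moved a count by over 1.5 times, its count is given. The block changes the error of every gene, and the shares of all genes below are from the fit without it. The block counts are therefore not set against all genes. Replicates stood apart in some groups: the Ifnar1-/- LPS+zVAD+Nec-1 arrays had the lowest correlation of any pair (r = 0.9471 over all genes) and a median difference of 0.77 over the members, and in 7 of the 8 WT groups 14 to 16 of the 16 cholesterol synthesis enzymes were higher in replicate 1, with a median difference of 0.95 in untreated cells and 1.02 with LPS+zVAD, whereas with LPS 8 of the 16 were higher. In bulk RNA of this kind, fewer cells of a type and less RNA per cell cannot be told apart.

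In WT BMDMs LPS raised some members and lowered others, in numbers near the shares over all genes. Ch25h rose 330-fold, a few enzymes of cholesterol synthesis rose, and the enzymes that elongate and desaturate fatty acids fell together with the exporter gene Abcg1. Of the 39 members, 6 rose and 12 fell, where 16.3% of all genes rose and 24.8% fell. The members that rose were Ch25h, Hsd17b7, Acat2, Cyp51, Idi1 and Sc5d, and the members that fell included Fads1, Dhcr7, Elovl6, Scd2 and Abcg1. The median log2 fold change was -0.23 over the members and -0.08 over all genes. When arrays were shifted to the same 75th percentile and not quantile-normalized, the median of all genes went up by 0.12 with LPS, and 9 members rose and 7 fell. The shift raised it by 0.15 with IFNβ, by 0.16 with IFNβ+zVAD and by 0.41 with LPS+zVAD in WT cells. Of all genes called with LPS in WT cells, 48.4% were higher with this shift and 39.7% without it. The shares in WT cells were 48.8% and 38.8% with IFNβ, 48.1% and 38.5% with IFNβ+zVAD and 50.3% and 35.9% with LPS+zVAD. With 1 of the 4 arrays left out at a time, 9 of the 18 calls were kept throughout, those of Sc5d, Ebp, Dhcr7, Acat2, Abcg1, Ch25h, Scd2, Elovl6 and Fads1.

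In Ifnar1-/- BMDMs, LPS raised most of the cholesterol synthesis pathway. In all, 16 members rose and 6 fell, against 10.9% and 13.9% of all genes, and 12 of the 16 members that rose were cholesterol synthesis enzymes. The others that rose were Insig1, Scap, Acat2 and Ch25h, and those that fell were Abcg1, Fads1, Dhcr7, Npc1, Srebf2 and Npc2. The median over the members was 0.64 against -0.06 over all genes. The number of calls depended on every array: it was 8 without untreated replicate 1, 9 without untreated replicate 2, 11 without LPS replicate 1 and 8 without LPS replicate 2. The calls of Mvd, Sc5d, Dhcr7, Abcg1, Ch25h and Fads1 were kept throughout, and the others kept their direction.

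IFNβ lowered lipid synthesis genes in WT BMDMs while no member was called in cells without its receptor. In WT cells 2 members rose, Ch25h and Abcg1, and 14 fell, where 13.7% and 21.6% of all genes did. The largest falls were in Scd2, Fads1, Elovl6, Mvd and Fasn, and the median over the members was -0.62 against -0.17 over all genes. With the 75th percentile scaling 4 members rose and 10 fell, and without untreated replicate 1 there were 10 calls. By limma, 0 of the members and 0% of all genes were called in Ifnar1-/- cells, and 0 members had an unadjusted p under 0.05. The interferon response list used as a check was also called only in WT cells, with 13 of 13 genes higher after IFNβ in WT cells and 0 of 13 in Ifnar1-/- cells.

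**Figure D1:**
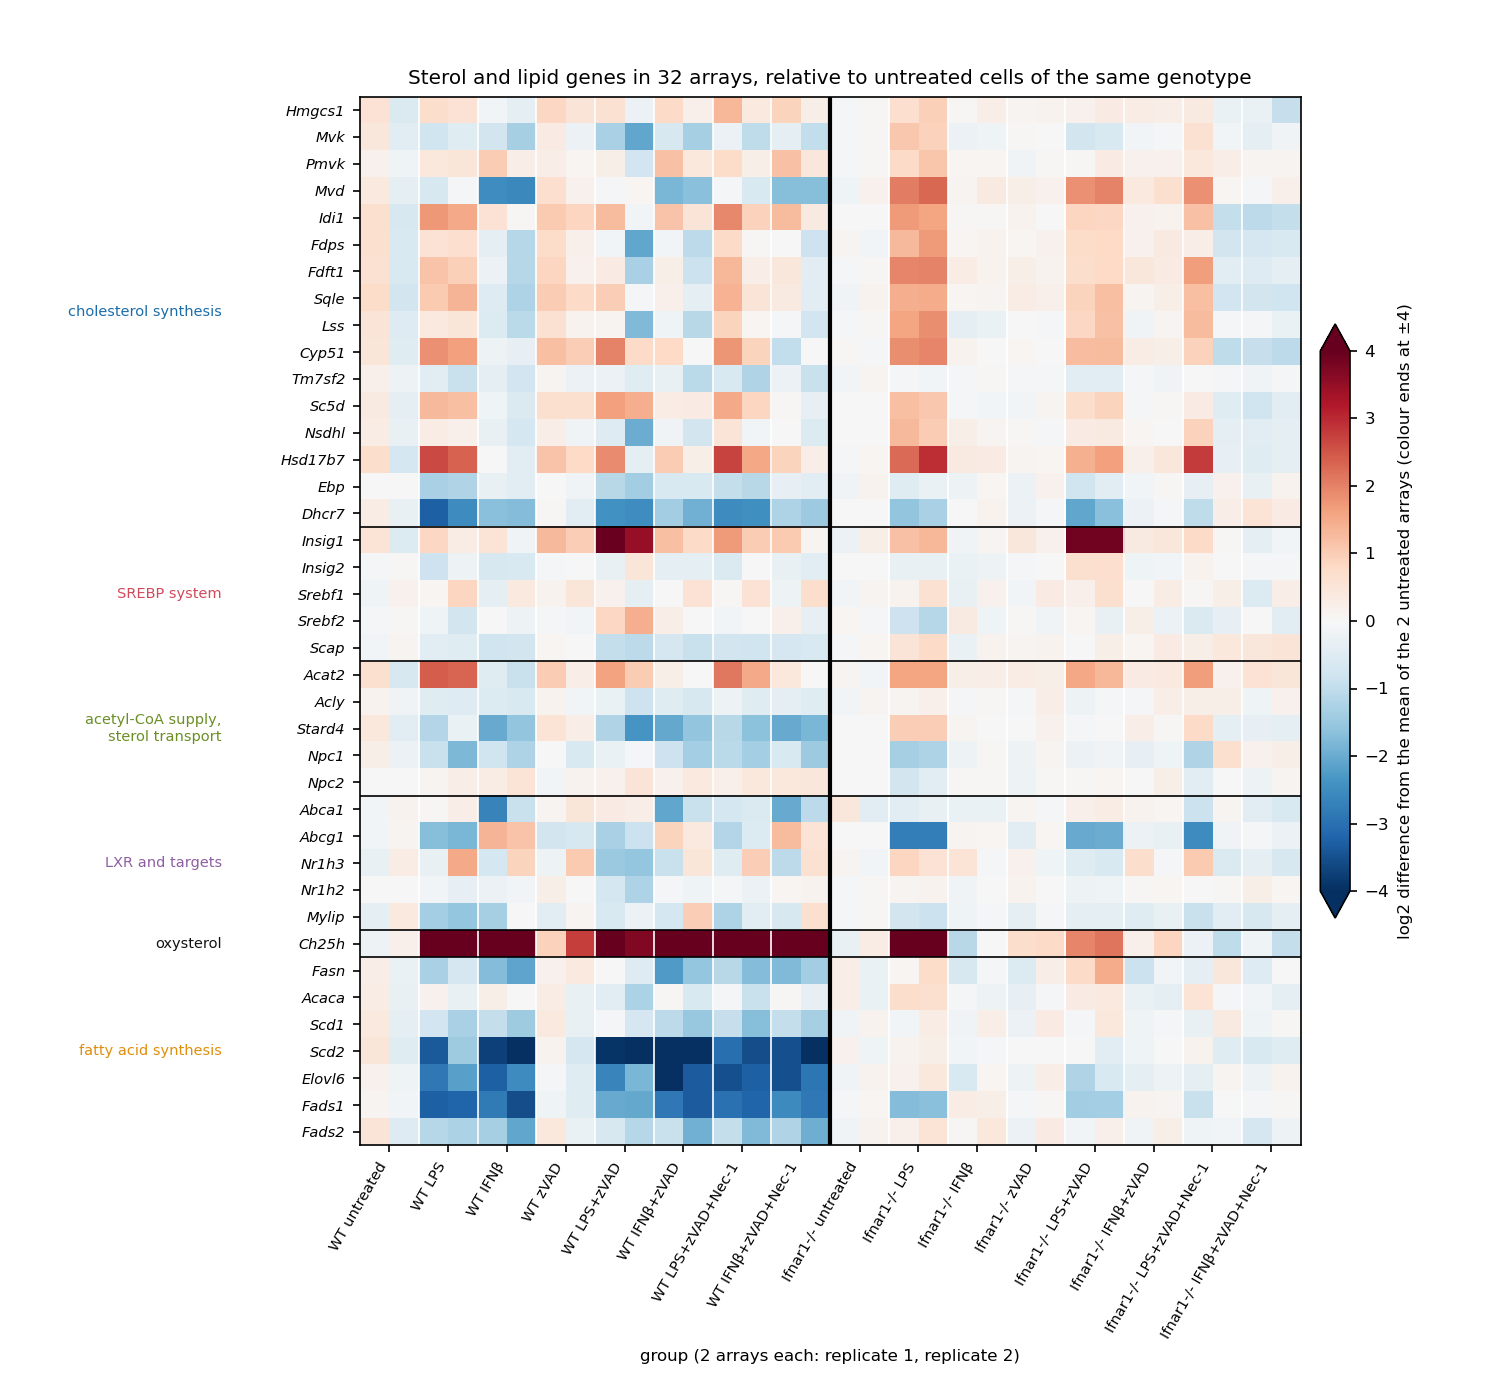
Log2 difference in intensity of each of the 39 genes (rows, grouped by role) from the mean of the untreated arrays of the same genotype, in all 32 arrays (columns, with replicate 1 left of replicate 2 in each group); red is higher, blue is lower and the colour ends at ±4. The cholesterol synthesis block is red in Ifnar1-/- cells with LPS (12 of 16 enzymes called higher), the fatty acid block is blue in WT cells with LPS or IFNβ (5 and 6 of 7 called lower), and the columns of Ifnar1-/- cells with IFNβ are pale (0 members called). Of all genes, 10.9% were called higher in Ifnar1-/- cells with LPS, and 24.8% and 21.6% lower in WT cells with LPS and IFNβ.

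Among the cholesterol synthesis enzymes, LPS raised 4 of 16 and lowered 2 in WT cells, with a median log2 fold change of 0.54. Of all genes, 16.3% rose and 24.8% fell there. In Ifnar1-/- cells LPS raised 12 and lowered 1, with a median of 1.31, where 10.9% of all genes rose and 13.9% fell. IFNβ lowered 3 of the 16 in WT cells, Mvd, Dhcr7 and Mvk, where 21.6% of all genes fell. The median over the group was -0.54. Hmgcs1 makes HMG-CoA at the head of the pathway. Hmgcs1 in WT cells stood at 14.43 and 13.29 in untreated cells, 14.57 and 14.43 with LPS, 13.76 and 13.49 with IFNβ, 14.70 and 14.38 with zVAD, 14.48 and 13.62 with LPS+zVAD, 14.63 and 14.07 with IFNβ+zVAD, 15.20 and 14.25 with LPS+zVAD+Nec-1 and 14.76 and 14.10 with IFNβ+zVAD+Nec-1. Hmgcs1 in Ifnar1-/- cells stood at 14.28 and 14.36 in untreated cells, 15 and 15.27 with LPS, 14.38 and 14.59 with IFNβ, 14.43 and 14.45 with zVAD, 14.50 and 14.64 with LPS+zVAD, 14.61 and 14.60 with IFNβ+zVAD, 14.68 and 14.06 with LPS+zVAD+Nec-1 and 14.05 and 13.40 with IFNβ+zVAD+Nec-1. Both LPS arrays lay above both untreated arrays in Ifnar1-/- cells and at or above them in WT cells, and neither difference passed the test (adjusted p = 0.189 in WT and 0.132 in Ifnar1-/- cells), although the WT difference was called with the slide as a block (adjusted p = 0.0351).

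Mvd, which makes isopentenyl diphosphate and so closes the mevalonate segment, separated the genotypes. Its probe lies at mm9 chr8:124957750-124957809. Mvd in WT cells stood at 11.42 and 10.67 in untreated cells, 10.39 and 11 with LPS, 8.56 and 8.48 with IFNβ, 11.72 and 11.22 with zVAD, 11.01 and 11.11 with LPS+zVAD, 9.21 and 9.38 with IFNβ+zVAD, 11 and 10.45 with LPS+zVAD+Nec-1 and 9.33 and 9.33 with IFNβ+zVAD+Nec-1. Mvd in Ifnar1-/- cells stood at 11.30 and 11.63 in untreated cells, 13.52 and 13.76 with LPS, 11.58 and 11.81 with IFNβ, 11.70 and 11.63 with zVAD, 13.30 and 13.46 with LPS+zVAD, 11.84 and 12.11 with IFNβ+zVAD, 13.29 and 11.55 with LPS+zVAD+Nec-1 and 11.41 and 11.68 with IFNβ+zVAD+Nec-1. Every IFNβ-treated WT array was below every untreated WT array, and every Ifnar1-/- array with LPS or LPS+zVAD was above all other arrays. Mvd fell in WT cells with IFNβ (log2 fold change -2.53 ± 0.38, adjusted p = 4.38e-05) and with IFNβ+zVAD (-1.75 ± 0.38, adjusted p = 0.00128). It rose in Ifnar1-/- cells with LPS (2.17 ± 0.38, adjusted p = 0.000462) and with LPS+zVAD (1.92 ± 0.38, adjusted p = 0.0011), while its log2 fold change with LPS in WT cells was -0.35 and did not pass the test.

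Idi1 isomerizes isopentenyl diphosphate. Idi1 in WT cells stood at 12.89 and 11.63 in untreated cells, 13.98 and 13.79 with LPS, 12.85 and 12.31 with IFNβ, 13.32 and 13.11 with zVAD, 13.53 and 12.15 with LPS+zVAD, 13.41 and 12.78 with IFNβ+zVAD, 14.17 and 13.19 with LPS+zVAD+Nec-1 and 13.53 and 12.63 with IFNβ+zVAD+Nec-1. Idi1 in Ifnar1-/- cells stood at 12.50 and 12.54 in untreated cells, 14.21 and 14.11 with LPS, 12.56 and 12.56 with IFNβ, 12.66 and 12.52 with zVAD, 13.39 and 13.36 with LPS+zVAD, 12.69 and 12.67 with IFNβ+zVAD, 13.69 and 11.57 with LPS+zVAD+Nec-1 and 11.46 and 11.58 with IFNβ+zVAD+Nec-1. Both LPS arrays were above both untreated arrays in each genotype, and the log2 fold change was 1.62 ± 0.54 (adjusted p = 0.0223) in WT and 1.64 ± 0.54 (adjusted p = 0.0335) in Ifnar1-/- cells. The WT call was lost without untreated replicate 2 or either LPS array, and the Ifnar1-/- call without any 1 of its 4 arrays.

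Sqle oxidizes squalene, an early oxygen-requiring step of the pathway. Sqle in WT cells stood at 13 and 11.51 in untreated cells, 13.29 and 13.61 with LPS, 11.74 and 11.03 with IFNβ, 13.27 and 13.02 with zVAD, 13.25 and 12.22 with LPS+zVAD, 12.47 and 11.85 with IFNβ+zVAD, 13.66 and 12.77 with LPS+zVAD+Nec-1 and 12.60 and 11.79 with IFNβ+zVAD+Nec-1. Sqle in Ifnar1-/- cells stood at 12.68 and 12.97 in untreated cells, 14.28 and 14.31 with LPS, 12.91 and 12.93 with IFNβ, 13.12 and 13.02 with zVAD, 13.71 and 14.02 with LPS+zVAD, 12.94 and 13.07 with IFNβ+zVAD, 14.04 and 12.05 with LPS+zVAD+Nec-1 and 12.10 and 12.04 with IFNβ+zVAD+Nec-1. The WT untreated arrays were 1.49 apart and both lay below both LPS arrays. Sqle rose with LPS in Ifnar1-/- cells (1.47 ± 0.53, adjusted p = 0.0486), a call lost without any 1 array, and was not called in WT cells (adjusted p = 0.0795).

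Cyp51 demethylates lanosterol. Cyp51 in WT cells stood at 9.79 and 8.81 in untreated cells, 11.12 and 10.93 with LPS, 9.1 and 8.96 with IFNβ, 10.50 and 10.27 with zVAD, 11.28 and 10.07 with LPS+zVAD, 10.11 and 9.28 with IFNβ+zVAD, 11.07 and 10.20 with LPS+zVAD+Nec-1 and 8.3 and 9.3 with IFNβ+zVAD+Nec-1. Cyp51 in Ifnar1-/- cells stood at 9.82 and 9.73 in untreated cells, 11.62 and 11.73 with LPS, 9.92 and 9.79 with IFNβ, 9.86 and 9.77 with zVAD, 11.01 and 11.04 with LPS+zVAD, 10.08 and 10.01 with IFNβ+zVAD, 10.69 and 8.77 with LPS+zVAD+Nec-1 and 8.84 and 8.73 with IFNβ+zVAD+Nec-1. It rose with LPS by 1.73 ± 0.5 (adjusted p = 0.0089) in WT and by 1.9 ± 0.5 (adjusted p = 0.00841) in Ifnar1-/- cells with no overlap between the groups. The call was lost without WT untreated replicate 2 or WT LPS replicate 1, and without replicate 2 of either Ifnar1-/- group.

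Hsd17b7 reduces a ketone during demethylation at sterol carbon 4 and gave the largest rise of the pathway. Hsd17b7 in WT cells stood at 9.29 and 7.86 in untreated cells, 11.20 and 10.92 with LPS, 8.6 and 8.16 with IFNβ, 9.71 and 9.38 with zVAD, 10.47 and 8.23 with LPS+zVAD, 9.58 and 8.81 with IFNβ+zVAD, 11.29 and 10.13 with LPS+zVAD+Nec-1 and 9.46 and 8.83 with IFNβ+zVAD+Nec-1. Hsd17b7 in Ifnar1-/- cells stood at 9.1 and 9.24 in untreated cells, 11.44 and 12.11 with LPS, 9.54 and 9.49 with IFNβ, 9.29 and 9.24 with zVAD, 10.59 and 10.81 with LPS+zVAD, 9.37 and 9.63 with IFNβ+zVAD, 11.98 and 8.84 with LPS+zVAD+Nec-1 and 8.67 and 8.77 with IFNβ+zVAD+Nec-1. LPS raised it by 2.48 ± 0.75 (adjusted p = 0.0117) in WT and by 2.61 ± 0.75 (adjusted p = 0.0146) in Ifnar1-/- cells, while the Ifnar1-/- LPS+zVAD+Nec-1 arrays were 3.14 apart. The call was lost without untreated replicate 2 or LPS replicate 1 in WT cells, and without either untreated array or LPS replicate 2 in Ifnar1-/- cells.

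Dhcr7, which carries out the last reduction to cholesterol, moved against most of the pathway with LPS. Dhcr7 in WT cells stood at 9.69 and 9.11 in untreated cells, 6.13 and 6.88 with LPS, 7.72 and 7.68 with IFNβ, 9.46 and 8.98 with zVAD, 6.99 and 6.93 with LPS+zVAD, 8.02 and 7.48 with IFNβ+zVAD, 6.88 and 6.96 with LPS+zVAD+Nec-1 and 8.16 and 7.94 with IFNβ+zVAD+Nec-1. Dhcr7 in Ifnar1-/- cells stood at 10.79 and 10.74 in untreated cells, 9.19 and 9.47 with LPS, 10.77 and 10.89 with IFNβ, 10.54 and 10.71 with zVAD, 8.68 and 9.09 with LPS+zVAD, 10.52 and 10.73 with IFNβ+zVAD, 9.74 and 11.03 with LPS+zVAD+Nec-1 and 11.32 and 11.08 with IFNβ+zVAD+Nec-1. With LPS both genotypes fell below their untreated arrays, with a log2 fold change of -2.9 ± 0.33 (adjusted p = 1.85e-06) in WT and of -1.43 ± 0.33 (adjusted p = 0.00335) in Ifnar1-/- cells. With IFNβ the WT arrays fell (-1.7 ± 0.33, adjusted p = 0.000474) and the Ifnar1-/- arrays stayed beside their untreated arrays, at 10.77 and 10.89 against 10.79 and 10.74. Ebp, a sterol isomerase that acts earlier in the pathway, fell with LPS in WT cells (-1.24 ± 0.2, adjusted p = 9.55e-05).

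The remaining enzymes are described by their responses to LPS. The rises in Ifnar1-/- cells were 1.97 for Fdft1 (squalene synthase), 1.72 for Lss (lanosterol synthase), 1.5 for Fdps (farnesyl diphosphate synthase), 1.16 for Nsdhl, 1.15 for Sc5d, 1.0 for Mvk (mevalonate kinase) and 0.94 for Pmvk (phosphomevalonate kinase), each as a log2 fold change with an adjusted p between 0.00358 and 0.0458. Sc5d alone of these 7 was also called in WT cells (1.25 ± 0.26, adjusted p = 0.000862). The Fdft1 call came from the brighter of 2 probes that did not follow each other over the 16 groups (r = 0.2): the dimmer probe, with a mean level of 6.57 against 11.46, gave 0.02 with LPS in Ifnar1-/- cells. Tm7sf2, a sterol reductase, and Ebp did not pass the test in Ifnar1-/- cells, where the mean level of Tm7sf2 was 11.58 in untreated cells.

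**Figure D2:**
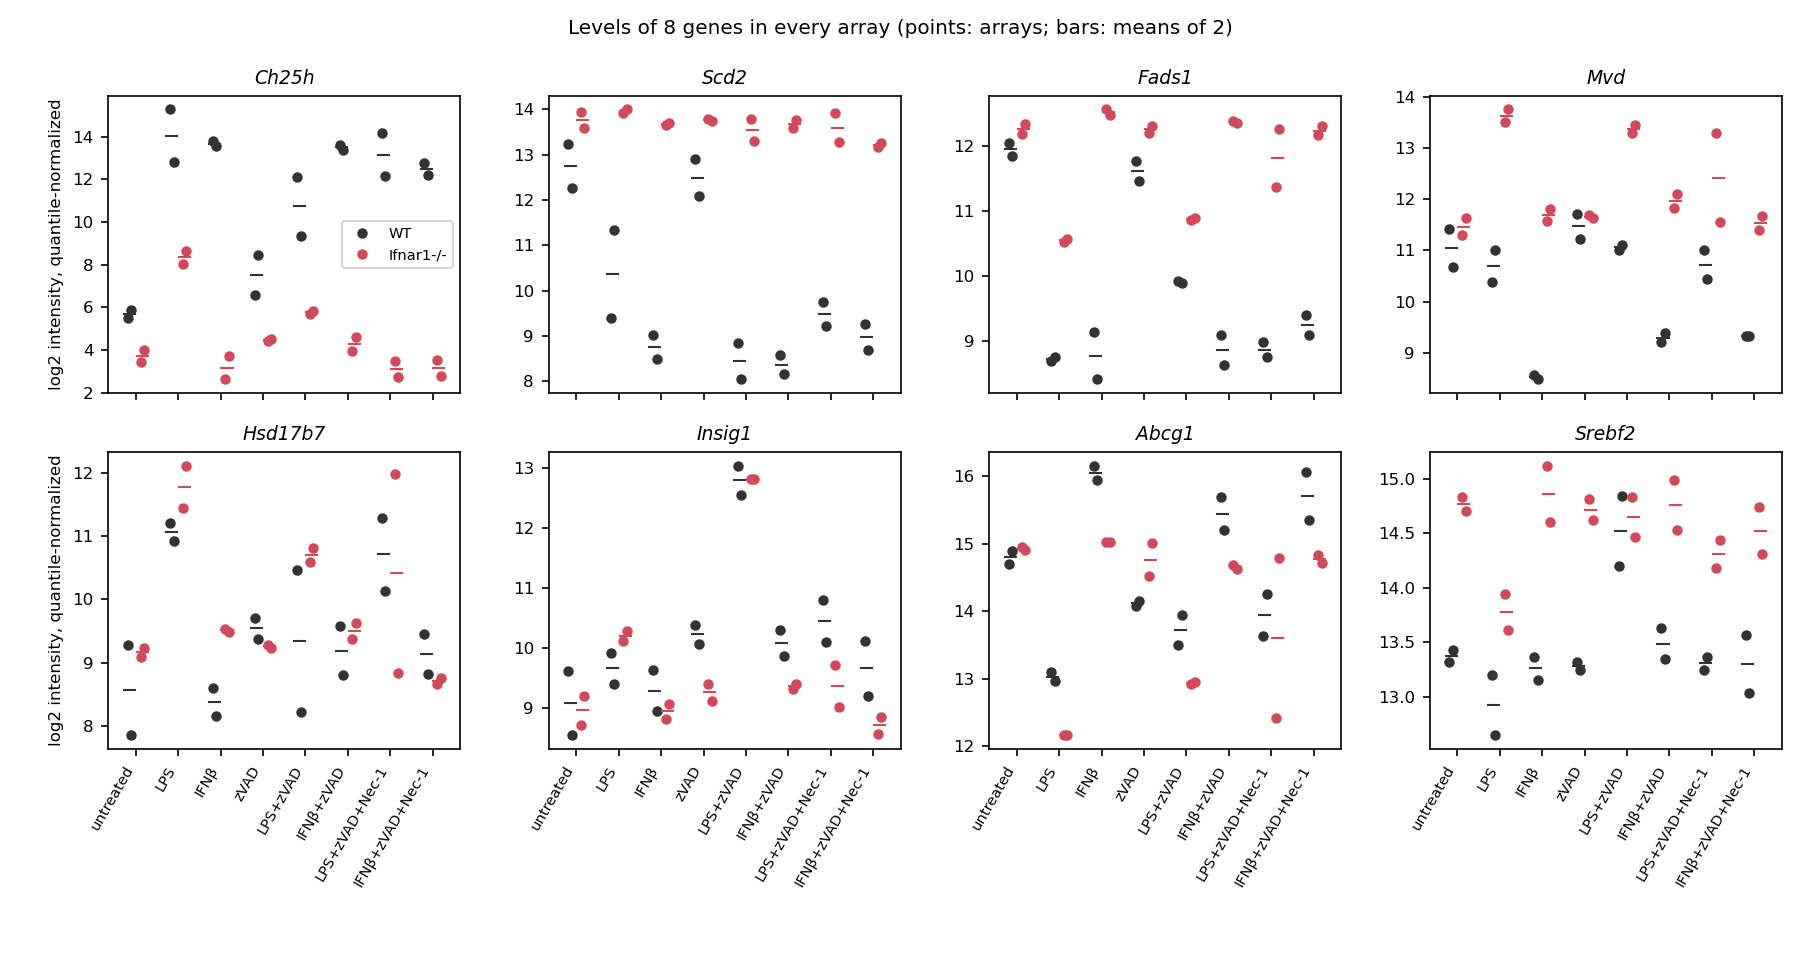
Quantile-normalized log2 intensity of 8 genes in every array (points) with the mean of each pair (bars), for WT (dark) and Ifnar1-/- (red) BMDMs over the 8 treatments on the horizontal axis. Ch25h lies at 12.81 to 15.27 in WT cells with LPS or IFNβ and at 8.64 or lower in every Ifnar1-/- array, Scd2 lies at 13.17 to 14 in every Ifnar1-/- array and at 11.34 or lower in WT cells with LPS or IFNβ, and Insig1 peaks with LPS+zVAD in both genotypes (12.55 to 13.04).

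Of the SREBP system, Insig1 had the clearest pattern, with a peak in LPS+zVAD in both genotypes. Its protein retains SCAP and SREBP in the endoplasmic reticulum, and the gene is itself an SREBP target. Insig1 in WT cells stood at 9.62 and 8.54 in untreated cells, 9.92 and 9.39 with LPS, 9.63 and 8.94 with IFNβ, 10.38 and 10.07 with zVAD, 13.04 and 12.55 with LPS+zVAD, 10.29 and 9.86 with IFNβ+zVAD, 10.79 and 10.10 with LPS+zVAD+Nec-1 and 10.12 and 9.19 with IFNβ+zVAD+Nec-1. Insig1 in Ifnar1-/- cells stood at 8.72 and 9.19 in untreated cells, 10.12 and 10.28 with LPS, 8.82 and 9.06 with IFNβ, 9.4 and 9.12 with zVAD, 12.82 and 12.81 with LPS+zVAD, 9.32 and 9.4 with IFNβ+zVAD, 9.72 and 9.01 with LPS+zVAD+Nec-1 and 8.56 and 8.85 with IFNβ+zVAD+Nec-1. The 4 LPS+zVAD arrays lay between 12.55 and 13.04 and the other 28 arrays between 8.54 and 10.79. The rise with LPS+zVAD over untreated cells was 3.71 ± 0.37 (adjusted p = 1.85e-07) in WT and 3.85 ± 0.37 (adjusted p = 2.56e-06) in Ifnar1-/- cells. Over LPS alone it was 3.14 ± 0.37 (adjusted p = 4.53e-06) in WT and 2.61 ± 0.37 (adjusted p = 0.000233) in Ifnar1-/- cells, and the addition of Nec-1 lowered it, with a log2 fold change of -2.35 ± 0.37 (adjusted p = 0.000126) in WT and of -3.45 ± 0.37 (adjusted p = 1.41e-05) in Ifnar1-/- cells. All 6 of these calls were kept with any 1 of their 4 arrays left out. A fit of only the arrays compared, with few degrees of freedom, did not call the Nec-1 differences.

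Insig2, the second retention protein, moved within a narrow range. Insig2 in WT cells stood at 12.01 and 12.11 in untreated cells, 11.23 and 11.86 with LPS, 11.43 and 11.45 with IFNβ, 12 and 12.08 with zVAD, 11.76 and 12.54 with LPS+zVAD, 11.67 and 11.71 with IFNβ+zVAD, 11.49 and 12.03 with LPS+zVAD+Nec-1 and 11.77 and 11.65 with IFNβ+zVAD+Nec-1. Insig2 in Ifnar1-/- cells stood at 11.89 and 11.95 in untreated cells, 11.63 and 11.62 with LPS, 11.66 and 11.72 with IFNβ, 11.85 and 11.89 with zVAD, 12.56 and 12.59 with LPS+zVAD, 11.75 and 11.80 with IFNβ+zVAD, 12.07 and 11.91 with LPS+zVAD+Nec-1 and 11.88 and 11.83 with IFNβ+zVAD+Nec-1. The highest pair was Ifnar1-/- LPS+zVAD, where Insig2 rose by 0.65 ± 0.22 (adjusted p = 0.031) over untreated cells, and in WT cells it fell with IFNβ (-0.62 ± 0.22, adjusted p = 0.0335). Both calls were lost when any 1 array was left out.

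Srebf1 was called in none of the comparisons between treatments. Srebf1 in WT cells stood at 7.52 and 7.89 in untreated cells, 7.79 and 8.55 with LPS, 7.31 and 8.11 with IFNβ, 7.83 and 8.2 with zVAD, 7.87 and 7.33 with LPS+zVAD, 7.72 and 8.27 with IFNβ+zVAD, 7.76 and 8.27 with LPS+zVAD+Nec-1 and 7.51 and 8.41 with IFNβ+zVAD+Nec-1. Srebf1 in Ifnar1-/- cells stood at 8.06 and 8.27 in untreated cells, 8.32 and 8.78 with LPS, 7.86 and 8.35 with IFNβ, 8.07 and 8.5 with zVAD, 8.36 and 8.8 with LPS+zVAD, 8.16 and 8.45 with IFNβ+zVAD, 8.2 and 8.39 with LPS+zVAD+Nec-1 and 7.62 and 8.42 with IFNβ+zVAD+Nec-1. Replicate 2 was above replicate 1 in 15 of the 16 groups. Between the genotypes with LPS+zVAD it was higher in Ifnar1-/- cells (0.98 ± 0.37, adjusted p = 0.0458), a call lost without WT LPS+zVAD replicate 2 or either Ifnar1-/- LPS+zVAD array and with the 75th percentile scaling.

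Srebf2 was measured by 2 retained probes that did not follow each other (r = -0.167 over the 16 groups). Srebf2 in WT cells, by the brightest probe, stood at 13.32 and 13.43 in untreated cells, 13.20 and 12.65 with LPS, 13.37 and 13.16 with IFNβ, 13.32 and 13.25 with zVAD, 14.20 and 14.84 with LPS+zVAD, 13.63 and 13.35 with IFNβ+zVAD, 13.25 and 13.37 with LPS+zVAD+Nec-1 and 13.57 and 13.04 with IFNβ+zVAD+Nec-1. Srebf2 in Ifnar1-/- cells stood at 14.83 and 14.70 in untreated cells, 13.94 and 13.61 with LPS, 15.12 and 14.60 with IFNβ, 14.81 and 14.62 with zVAD, 14.83 and 14.47 with LPS+zVAD, 14.99 and 14.53 with IFNβ+zVAD, 14.18 and 14.44 with LPS+zVAD+Nec-1 and 14.74 and 14.31 with IFNβ+zVAD+Nec-1. By this probe it fell with LPS in Ifnar1-/- cells (-0.98 ± 0.26, adjusted p = 0.00956) and rose with LPS+zVAD in WT cells (1.14 ± 0.26, adjusted p = 0.00122). The second probe rose with LPS instead, by 1.37 in Ifnar1-/- cells (adjusted p = 0.00963 over all probes) and by 1.7 in WT cells (0.000987), so the direction of Srebf2 with LPS depended on the probe. With LPS+zVAD in WT cells both probes rose, by 1.14 and 1.64. In Ifnar1-/- cells with LPS+zVAD the brightest probe gave -0.11, whereas the second rose by 1.25 (adjusted p = 0.0157 over all probes by limma). Scap, the escort protein, fell in WT cells with LPS (-0.47 ± 0.16, adjusted p = 0.0216), IFNβ (-0.77 ± 0.16, adjusted p = 0.00084) and LPS+zVAD (-0.99 ± 0.16, adjusted p = 3.34e-05), and rose with LPS in Ifnar1-/- cells (0.64 ± 0.16, adjusted p = 0.00569). The calls of the fall with IFNβ and LPS+zVAD were kept with any 1 array left out. With the 75th percentile scaling the fall with LPS in WT cells was not called.

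Ch25h, the oxysterol enzyme, gave the largest change of any member. Its probe lies at mm9 chr19:34548720-34548779. Ch25h in WT cells stood at 5.48 and 5.86 in untreated cells, 15.27 and 12.81 with LPS, 13.81 and 13.54 with IFNβ, 6.58 and 8.45 with zVAD, 12.12 and 9.36 with LPS+zVAD, 13.62 and 13.36 with IFNβ+zVAD, 14.15 and 12.17 with LPS+zVAD+Nec-1 and 12.74 and 12.20 with IFNβ+zVAD+Nec-1. Ch25h in Ifnar1-/- cells stood at 3.43 and 4.02 in untreated cells, 8.05 and 8.64 with LPS, 2.63 and 3.72 with IFNβ, 4.42 and 4.5 with zVAD, 5.69 and 5.85 with LPS+zVAD, 3.94 and 4.59 with IFNβ+zVAD, 3.48 and 2.72 with LPS+zVAD+Nec-1 and 3.54 and 2.78 with IFNβ+zVAD+Nec-1. Among the Ifnar1-/- arrays it was well above background only with LPS and with LPS+zVAD (2 of 2 arrays each), and every Ifnar1-/- array was below every WT array treated with LPS or IFNβ, alone or in combination. It rose in WT cells 330-fold with LPS (8.37 ± 0.83, adjusted p = 5.68e-07), 257-fold with IFNβ (8.01 ± 0.83, adjusted p = 6.12e-07), 226-fold with IFNβ+zVAD and 33.6-fold with LPS+zVAD. LPS raised it in Ifnar1-/- cells at least 24.6-fold (4.62 ± 0.83, adjusted p = 0.000565), since the untreated arrays, with a mean of 3.72, were not well above background. Such a bound sets the mean of the bright group against, on each dim array, the higher of the probe's own signal and the lowest signal of a probe well above background. With LPS+zVAD the rise in Ifnar1-/- cells was not called (2.05, adjusted p = 0.0736), unless the slide was a block (0.0452). LPS+zVAD was below LPS in WT cells (-3.29 ± 0.83, adjusted p = 0.00428), but the WT LPS+zVAD arrays were 2.76 apart, and the call was lost without LPS replicate 1 or LPS+zVAD replicate 2.

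Among the LXR genes, Abcg1 moved in opposite directions with LPS and IFNβ. It encodes an exporter of cholesterol to lipoproteins. Abcg1 in WT cells stood at 14.70 and 14.90 in untreated cells, 13.10 and 12.96 with LPS, 16.16 and 15.94 with IFNβ, 14.08 and 14.15 with zVAD, 13.50 and 13.95 with LPS+zVAD, 15.69 and 15.20 with IFNβ+zVAD, 13.63 and 14.25 with LPS+zVAD+Nec-1 and 16.07 and 15.36 with IFNβ+zVAD+Nec-1. Abcg1 in Ifnar1-/- cells stood at 14.95 and 14.91 in untreated cells, 12.16 and 12.17 with LPS, 15.03 and 15.02 with IFNβ, 14.52 and 15.01 with zVAD, 12.92 and 12.95 with LPS+zVAD, 14.69 and 14.63 with IFNβ+zVAD, 12.42 and 14.79 with LPS+zVAD+Nec-1 and 14.84 and 14.71 with IFNβ+zVAD+Nec-1. LPS lowered it, with a log2 fold change of -1.77 ± 0.46 (adjusted p = 0.0043) in WT and of -2.77 ± 0.46 (adjusted p = 0.000309) in Ifnar1-/- cells, with no overlap and with the call kept whichever array was left out. IFNβ raised it in WT cells by 1.25 ± 0.46 (adjusted p = 0.0397), a call lost without any 1 of the 4 arrays. LPS+zVAD lowered it in Ifnar1-/- cells (-2.0 ± 0.46, adjusted p = 0.00306).

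Abca1, which exports cholesterol to apolipoproteins, fell in WT cells with IFNβ. Abca1 in WT cells stood at 13.58 and 13.83 in untreated cells, 13.76 and 13.98 with LPS, 11.04 and 12.80 with IFNβ, 13.81 and 14.18 with zVAD, 14.03 and 13.96 with LPS+zVAD, 11.62 and 12.81 with IFNβ+zVAD, 12.99 and 13.13 with LPS+zVAD+Nec-1 and 11.70 and 12.67 with IFNβ+zVAD+Nec-1. Abca1 in Ifnar1-/- cells stood at 13.87 and 12.97 in untreated cells, 12.96 and 13.11 with LPS, 13.14 and 13.16 with IFNβ, 13.54 and 13.37 with zVAD, 13.63 and 13.72 with LPS+zVAD, 13.56 and 13.51 with IFNβ+zVAD, 12.56 and 13.52 with LPS+zVAD+Nec-1 and 13.01 and 12.80 with IFNβ+zVAD+Nec-1. The log2 fold change was -1.78 ± 0.46 (adjusted p = 0.0055), with IFNβ replicate 1 well below replicate 2, and the call was lost without IFNβ replicate 1. With LPS the WT arrays overlapped the untreated arrays. It also fell with IFNβ+zVAD (-1.49 ± 0.46, adjusted p = 0.0161), a call lost without IFNβ+zVAD replicate 1 or untreated replicate 2.

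Mylip encodes a ubiquitin ligase that removes lipoprotein receptors. Mylip in WT cells stood at 13.40 and 14.19 in untreated cells, 12.42 and 12.26 with LPS, 12.46 and 13.80 with IFNβ, 13.35 and 13.89 with zVAD, 13.20 and 13.55 with LPS+zVAD, 13.09 and 14.78 with IFNβ+zVAD, 12.56 and 13.34 with LPS+zVAD+Nec-1 and 13.14 and 14.44 with IFNβ+zVAD+Nec-1. Mylip in Ifnar1-/- cells stood at 12.86 and 12.95 in untreated cells, 12.17 and 12.05 with LPS, 12.72 and 12.82 with IFNβ, 12.53 and 12.84 with zVAD, 12.56 and 12.50 with LPS+zVAD, 12.43 and 12.61 with IFNβ+zVAD, 12.01 and 12.45 with LPS+zVAD+Nec-1 and 12.26 and 12.55 with IFNβ+zVAD+Nec-1. It fell with LPS in WT cells (-1.46 ± 0.49, adjusted p = 0.0224), and the call was lost without untreated replicate 2 or either LPS array and with the 75th percentile scaling. Its second probe gave -1.34 (adjusted p = 0.0926 over all probes). Nr1h3 encodes LXRα. Nr1h3 in WT cells stood at 13.38 and 13.97 in untreated cells, 13.39 and 15.18 with LPS, 12.98 and 14.58 with IFNβ, 13.47 and 14.73 with zVAD, 12.20 and 12.14 with LPS+zVAD, 12.79 and 14.16 with IFNβ+zVAD, 13.19 and 14.66 with LPS+zVAD+Nec-1 and 12.64 and 14.27 with IFNβ+zVAD+Nec-1. Nr1h3 in Ifnar1-/- cells stood at 13.73 and 13.49 in untreated cells, 14.47 and 14.19 with LPS, 14.16 and 13.53 with IFNβ, 13.77 and 13.43 with zVAD, 13.11 and 13 with LPS+zVAD, 14.30 and 13.53 with IFNβ+zVAD, 14.67 and 13.04 with LPS+zVAD+Nec-1 and 13.24 and 12.97 with IFNβ+zVAD+Nec-1. Replicate 2 was above replicate 1 in 7 of the 8 WT groups, and Nr1h3 was called once, lower with LPS+zVAD than with LPS in WT cells (-2.12 ± 0.71, adjusted p = 0.0263), a call kept only without LPS replicate 1. Nr1h2, which encodes LXRβ, fell in WT cells with LPS+zVAD (-0.96 ± 0.16, adjusted p = 4.28e-05), and with the 75th percentile scaling this was not called.

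Fatty acid synthesis and desaturation genes fell in WT cells, while few of them were called in Ifnar1-/- cells. LPS lowered 5 of the 7 in WT cells (median -1.21), where 24.8% of all genes fell. In Ifnar1-/- cells it lowered 1 of the 7 (median 0.3), where 13.9% of all genes fell. IFNβ lowered 6 of the 7 in WT cells (median -1.93), where 21.6% of all genes fell, and 0 in Ifnar1-/- cells (0% of all genes). Among the 7, Scd2, a stearoyl-CoA desaturase, fell furthest with IFNβ. Its probe lies at mm9 chr19:44381024-44381083. Scd2 in WT cells stood at 13.24 and 12.27 in untreated cells, 9.39 and 11.34 with LPS, 9.02 and 8.49 with IFNβ, 12.91 and 12.08 with zVAD, 8.83 and 8.04 with LPS+zVAD, 8.57 and 8.16 with IFNβ+zVAD, 9.74 and 9.22 with LPS+zVAD+Nec-1 and 9.25 and 8.68 with IFNβ+zVAD+Nec-1. Scd2 in Ifnar1-/- cells stood at 13.95 and 13.58 in untreated cells, 13.92 and 14 with LPS, 13.65 and 13.71 with IFNβ, 13.78 and 13.74 with zVAD, 13.78 and 13.30 with LPS+zVAD, 13.59 and 13.77 with IFNβ+zVAD, 13.92 and 13.28 with LPS+zVAD+Nec-1 and 13.17 and 13.27 with IFNβ+zVAD+Nec-1. All 16 Ifnar1-/- arrays lay between 13.17 and 14, whereas the WT arrays with LPS, IFNβ or a combination lay between 8.04 and 11.34 and below the untreated and zVAD arrays. In WT cells Scd2 fell with IFNβ (-4.0 ± 0.47, adjusted p = 3e-06), LPS (-2.39 ± 0.47, adjusted p = 0.000501), LPS+zVAD (-4.32 ± 0.47, adjusted p = 4.93e-07) and IFNβ+zVAD (-4.39 ± 0.47, adjusted p = 9.75e-07). The WT LPS arrays were 1.95 apart.

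Fads1, the delta-5 desaturase of long polyunsaturated fatty acids, fell with LPS in both genotypes. Fads1 in WT cells stood at 12.05 and 11.86 in untreated cells, 8.69 and 8.75 with LPS, 9.14 and 8.41 with IFNβ, 11.77 and 11.47 with zVAD, 9.93 and 9.9 with LPS+zVAD, 9.09 and 8.63 with IFNβ+zVAD, 8.98 and 8.75 with LPS+zVAD+Nec-1 and 9.4 and 9.09 with IFNβ+zVAD+Nec-1. Fads1 in Ifnar1-/- cells stood at 12.19 and 12.34 in untreated cells, 10.52 and 10.58 with LPS, 12.57 and 12.49 with IFNβ, 12.21 and 12.32 with zVAD, 10.87 and 10.90 with LPS+zVAD, 12.40 and 12.36 with IFNβ+zVAD, 11.37 and 12.27 with LPS+zVAD+Nec-1 and 12.18 and 12.31 with IFNβ+zVAD+Nec-1. The log2 fold change with LPS was -3.23 ± 0.25 (adjusted p = 4.38e-08) in WT and -1.72 ± 0.25 (adjusted p = 0.000123) in Ifnar1-/- cells, and with IFNβ in WT cells it was -3.18 ± 0.25 (adjusted p = 2.21e-08). With IFNβ the Ifnar1-/- arrays stood at 12.57 and 12.49, above the untreated pair of 12.19 and 12.34, and were not called.

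Elovl6, which elongates palmitate, fell in WT cells with every LPS or IFNβ treatment tested against untreated cells. Elovl6 in WT cells stood at 8.94 and 8.62 in untreated cells, 5.93 and 6.61 with LPS, 5.5 and 6.27 with IFNβ, 8.73 and 8.3 with zVAD, 6.13 and 6.94 with LPS+zVAD, 4.58 and 5.46 with IFNβ+zVAD, 5.25 and 5.5 with LPS+zVAD+Nec-1 and 5.27 and 5.89 with IFNβ+zVAD+Nec-1. Elovl6 in Ifnar1-/- cells stood at 8.85 and 9.14 in untreated cells, 9.17 and 9.41 with LPS, 8.39 and 9.07 with IFNβ, 8.8 and 9.27 with zVAD, 7.78 and 8.39 with LPS+zVAD, 8.62 and 8.8 with IFNβ+zVAD, 8.6 and 9.11 with LPS+zVAD+Nec-1 and 8.8 and 9.13 with IFNβ+zVAD+Nec-1. The log2 fold changes in WT cells were -2.51 ± 0.37 (adjusted p = 3.42e-05) with LPS, -2.9 ± 0.37 (adjusted p = 8.41e-06) with IFNβ and -3.76 ± 0.37 (adjusted p = 3.86e-07) with IFNβ+zVAD, and no treatment was called in Ifnar1-/- cells.

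Scd1, the desaturase next to Scd2 in the genome, moved less. Scd1 in WT cells stood at 8.42 and 7.61 in untreated cells, 7.24 and 6.73 with LPS, 7.07 and 6.58 with IFNβ, 8.39 and 7.72 with zVAD, 7.93 and 7.35 with LPS+zVAD, 6.98 and 6.49 with IFNβ+zVAD, 7.1 and 6.32 with LPS+zVAD+Nec-1 and 7.05 and 6.69 with IFNβ+zVAD+Nec-1. Scd1 in Ifnar1-/- cells stood at 8.17 and 8.44 in untreated cells, 8.21 and 8.61 with LPS, 8.17 and 8.56 with IFNβ, 8.07 and 8.63 with zVAD, 8.22 and 8.72 with LPS+zVAD, 8.13 and 8.27 with IFNβ+zVAD, 8.02 and 8.66 with LPS+zVAD+Nec-1 and 8.13 and 8.35 with IFNβ+zVAD+Nec-1. It fell in WT cells with LPS (-1.03 ± 0.36, adjusted p = 0.027) and with IFNβ (-1.19 ± 0.36, adjusted p = 0.014), but neither was called with the 75th percentile scaling or without untreated replicate 1, nor without replicate 2 of the treated group. Fasn encodes fatty acid synthase and was dim. Fasn in WT cells stood at 7.06 and 6.54 in untreated cells, 5.5 and 6.12 with LPS, 5.06 and 4.68 with IFNβ, 6.97 and 7.2 with zVAD, 6.82 and 6.27 with LPS+zVAD, 4.52 and 5.24 with IFNβ+zVAD, 5.69 and 5.08 with LPS+zVAD+Nec-1 and 5.03 and 5.4 with IFNβ+zVAD+Nec-1. Fasn in Ifnar1-/- cells stood at 7.32 and 6.76 in untreated cells, 7.13 and 7.77 with LPS, 6.39 and 6.98 with IFNβ, 6.49 and 7.31 with zVAD, 7.8 and 8.51 with LPS+zVAD, 6.18 and 6.94 with IFNβ+zVAD, 6.65 and 7.48 with LPS+zVAD+Nec-1 and 6.51 and 7.05 with IFNβ+zVAD+Nec-1. It fell in WT cells with IFNβ (-1.93 ± 0.41, adjusted p = 0.00126), where 1 of the 2 arrays was well above background. Fads2, the delta-6 desaturase, measured by several probes, fell in WT cells with LPS (-1.21 ± 0.41, adjusted p = 0.0226) and IFNβ (-1.71 ± 0.41, adjusted p = 0.00284), calls that were lost when the mean of its probes replaced the brightest. Acaca, acetyl-CoA carboxylase, was called only with LPS+zVAD in WT cells (-0.83 ± 0.33, adjusted p = 0.0431) among the comparisons with untreated cells, and not with the 75th percentile scaling.

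**Figure D3:**
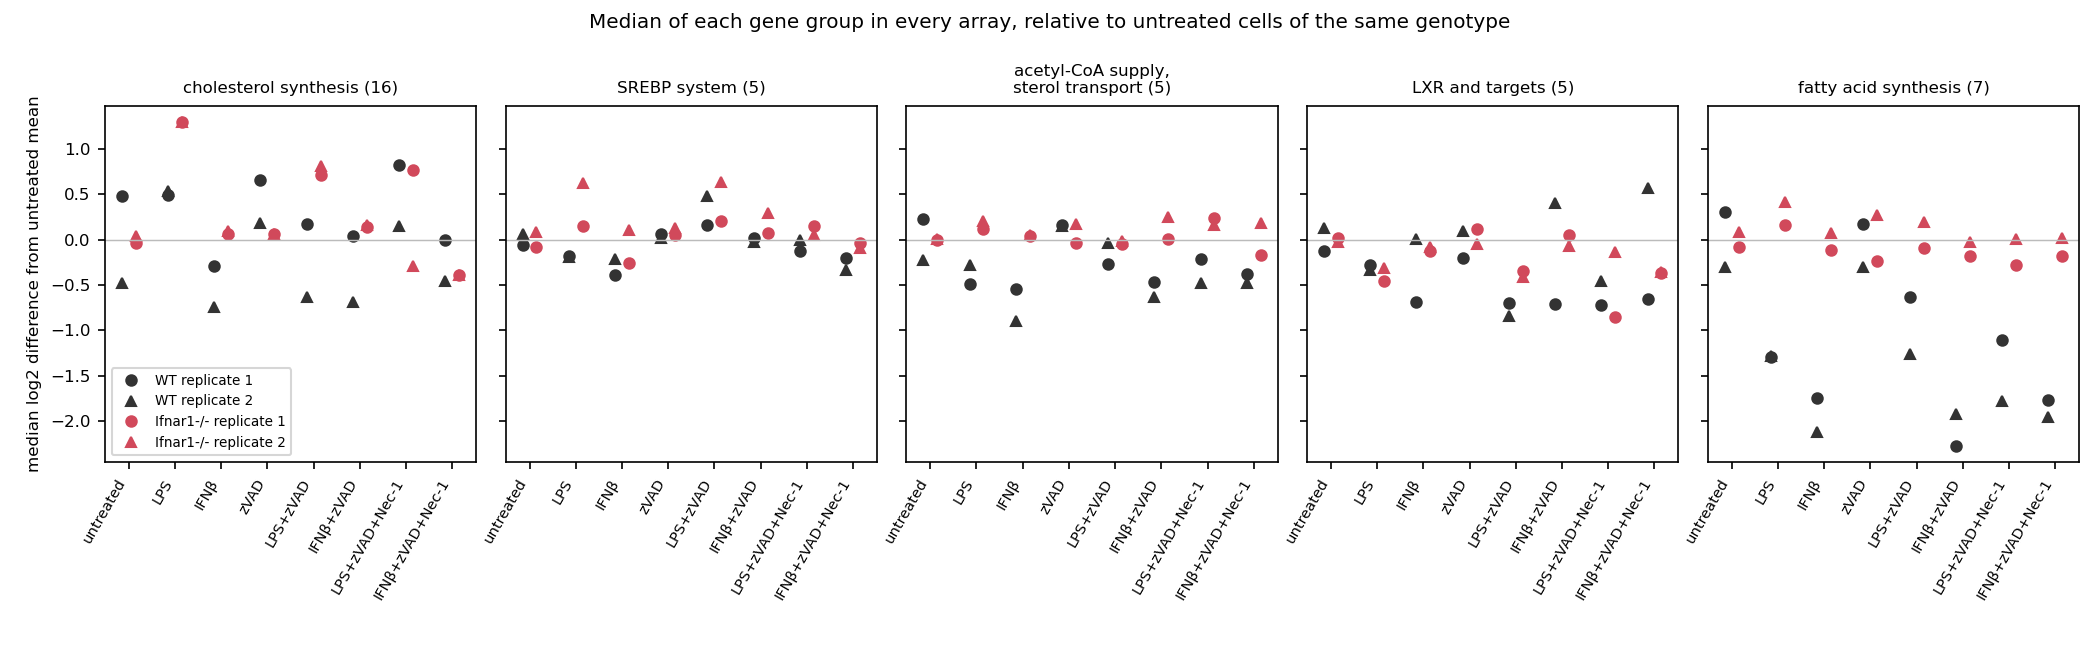
Median over the members of a role of the log2 difference from the untreated mean of the same genotype (vertical axis), with circles for replicate 1 and triangles for replicate 2, dark for WT and red for Ifnar1-/- arrays, for the treatments on the horizontal axis. In Ifnar1-/- cells with LPS the cholesterol synthesis points lie above 0 (median of the 16 log2 fold changes 1.31), and in WT cells with IFNβ the fatty acid synthesis points lie below 0 (median of the 7 log2 fold changes -1.93).

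Acetyl-CoA supply and sterol transport gave a mixed picture. Acat2, here the acetoacetyl-CoA thiolase that feeds the mevalonate pathway, rose with LPS by 2.38 ± 0.41 (adjusted p = 0.000131) in WT and by 1.58 ± 0.41 (adjusted p = 0.00772) in Ifnar1-/- cells. Its levels were 8.0 and 6.7 in untreated and 9.77 and 9.69 in LPS-treated WT arrays, and 8.27 and 8.06 against 9.75 and 9.73 in Ifnar1-/- arrays, with no overlap. Acly, which makes cytosolic acetyl-CoA from citrate, fell in WT cells with LPS and IFNβ by 0.5 and 0.57, and neither was called with the 75th percentile scaling. Npc1 and Npc2 hand cholesterol out of lysosomes. Npc1 fell with LPS in both genotypes (-1.34 ± 0.43, adjusted p = 0.0166 in WT and -1.29 ± 0.43, adjusted p = 0.0334 in Ifnar1-/- cells), without overlap; the call was lost without WT untreated replicate 1 or LPS replicate 2, and without any 1 of the Ifnar1-/- arrays. Npc2 fell with LPS in Ifnar1-/- cells (-0.59 ± 0.18, adjusted p = 0.0223), and with the 75th percentile scaling it was not called.

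Stard4 encodes a carrier of sterols between membranes. Stard4 in WT cells stood at 11.95 and 11.09 in untreated cells, 10.36 and 11.24 with LPS, 9.5 and 9.95 with IFNβ, 12.06 and 11.78 with zVAD, 10.31 and 9.17 with LPS+zVAD, 9.48 and 9.95 with IFNβ+zVAD, 10.41 and 9.87 with LPS+zVAD+Nec-1 and 9.49 and 9.7 with IFNβ+zVAD+Nec-1. Stard4 in Ifnar1-/- cells stood at 11.27 and 11.22 in untreated cells, 12.23 and 12.23 with LPS, 11.36 and 11.22 with IFNβ, 11.25 and 11.42 with zVAD, 11.20 and 11.23 with LPS+zVAD, 11.51 and 11.29 with IFNβ+zVAD, 12.01 and 10.88 with LPS+zVAD+Nec-1 and 10.92 and 10.86 with IFNβ+zVAD+Nec-1. By the brightest probe it fell in WT cells with IFNβ (-1.8 ± 0.38, adjusted p = 0.00119) and LPS+zVAD (-1.78 ± 0.38, adjusted p = 0.000687). Its second probe did not follow the first (r = 0.04 over the 16 groups): it gave -0.21 with IFNβ and rose with LPS by 1.61 in WT and by 1.69 in Ifnar1-/- cells, so these falls rest on 1 probe.

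The genotypes were compared by the difference between their responses, which lies within slides. The response to IFNβ differed for 9 members, 8 higher and 1 lower in Ifnar1-/- cells, where 10.2% and 8.53% of all genes differed. The response to LPS differed for 5 members, all higher in Ifnar1-/- cells, where 3.03% of all genes were higher and 3.6% lower. For LPS+zVAD the counts were 5 higher and 1 lower (11.3% and 4.78% of all genes), for IFNβ+zVAD 7 higher and 1 lower (10.8% and 8.36%), and for zVAD limma called 0 members (0% of all genes), of which 0 had an unadjusted p under 0.05. Mvd, Scap and Scd2 differed in all 4 of the comparisons that gave calls. For Mvd the response in Ifnar1-/- cells exceeded that in WT cells by 2.52 ± 0.54 (adjusted p = 0.00701) with LPS and by 2.76 ± 0.54 (adjusted p = 0.00134) with IFNβ. For Elovl6 the differences were 2.81 ± 0.53 (adjusted p = 0.00277) and 2.64 ± 0.53 (adjusted p = 0.00174). For Scd2 with IFNβ it was 3.91 ± 0.67 (adjusted p = 0.000431), for Fads1 3.44 ± 0.35 (adjusted p = 2.54e-06) and for Ch25h -8.55 ± 1.17 (adjusted p = 4.85e-05), where both Ifnar1-/- groups were not well above background for Ch25h. Of the 16 cholesterol synthesis enzymes, Mvd alone was called different in its response to LPS without the slide block. The other 15 differences ran from -0.1 for Sc5d to 1.64 ± 0.5 for Mvk (adjusted p = 0.0565), with 1.47 for Dhcr7, 1.3 for Lss and 0.86 for Ebp, and were close to 0 for Idi1 (0.02 ± 0.77), Hsd17b7 (0.12 ± 1.05) and Cyp51 (0.18 ± 0.7), with wide errors.

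With the slide as a block the counts of these differences were 13 higher and 2 lower for LPS, 13 and 1 for IFNβ, 15 and 2 for LPS+zVAD and 15 and 1 for IFNβ+zVAD, and no call without the block was lost. The shares of all genes given above are from the fit without the block, so this rise is not read as a trait of the members. The members added for LPS included Mvk (1.64, adjusted p = 0.00311), Dhcr7 (1.47, 0.0264), Fads2 (1.58, 0.00032), Scd1 (1.14, 0.000653) and Ch25h (-3.75, 0.0294). The Ch25h value rests on untreated Ifnar1-/- arrays that were not well above background, so the difference could lie nearer to 0. With the 75th percentile scaling 5 members were higher and 1 lower for LPS, and 4 higher and 3 lower for LPS+zVAD. Of all genes called, 41.8% were higher for LPS and 51.4% for LPS+zVAD with this scaling, against 45.7% and 70.3% without it. Leaving out 1 array left the LPS count at 3 without WT untreated replicate 1, Ifnar1-/- untreated replicate 1 or WT LPS replicate 1 and at 8 without WT LPS replicate 2. The LPS+zVAD count was 2 without WT untreated replicate 1, Ifnar1-/- untreated replicate 1 or Ifnar1-/- LPS+zVAD replicate 2 and 10 without WT LPS+zVAD replicate 1.

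**Figure D4:**
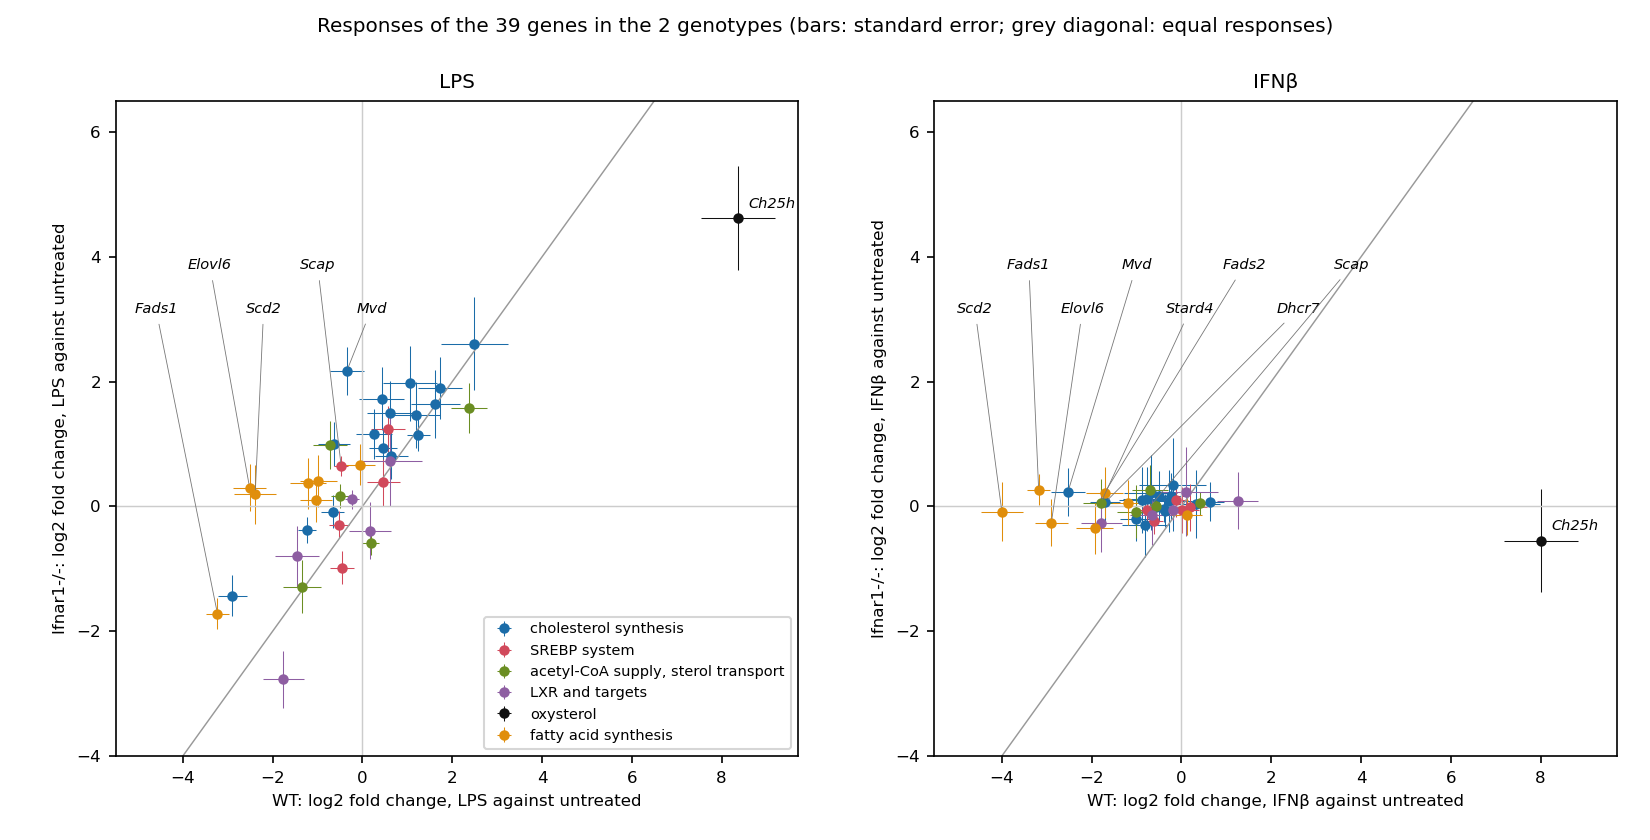
Log2 fold change over untreated cells of each member in WT (horizontal axis) and Ifnar1-/- BMDMs (vertical axis) for LPS (left) and IFNβ (right), coloured by role, with standard errors as bars and names on Ch25h and on the members whose responses were called different between the genotypes; the grey diagonal marks equal responses. With LPS 5 members differ, all above the diagonal, and the difference for Ch25h was not called; with IFNβ the Ifnar1-/- values stay near 0 while Scd2 falls by 4.0 and Ch25h rises by 8.01 in WT cells.

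In a direct comparison within a treatment, genotype cannot be told apart from slide and scan day. In untreated cells 2 members were higher in Ifnar1-/- arrays and 0 lower, where 5.37% of all genes were higher and 3.35% lower. These were Srebf2 (1.38 ± 0.26, adjusted p = 0.00217), for which the second probe gave 0.43 and which was called without any 1 array, and Dhcr7 (1.36 ± 0.33, adjusted p = 0.0119), a call kept only without WT untreated replicate 1; without any other array the count was 1. With LPS+zVAD 16 members were higher and 1 lower, where 25.7% and 11.7% of all genes were. The largest differences were in Scd2 (5.11 ± 0.47, adjusted p = 1.84e-07), Ch25h (-4.97 ± 0.83, adjusted p = 0.000114), Lss (2.33 ± 0.51, adjusted p = 0.00126), Mvd (2.32 ± 0.38, adjusted p = 9.21e-05), Fdps (2.27 ± 0.52, adjusted p = 0.0018) and Fads2 (2.08 ± 0.41, adjusted p = 0.000486). With the 75th percentile scaling, which lowered the median of all genes in this comparison by 0.49, 11 members were higher and 4 lower. Of all genes called in this comparison, 43.9% were higher in Ifnar1-/- cells with this scaling and 68.7% without it. The count was 11 without WT LPS+zVAD replicate 2 or Ifnar1-/- LPS+zVAD replicate 2. Fibroblast markers also differed between the genotypes: their summed level was 9.86 in untreated WT and 12.05 in untreated Ifnar1-/- cells and ran from 9.19 to 12.88 over the groups, with Col1a1 at 4.91 to 7.95 in WT and 8.95 to 11.02 in Ifnar1-/- arrays. Dcn, of the same list, overlapped (5.27 to 8.56 in WT and 5.97 to 8.22 in Ifnar1-/- arrays). The summed level of neutrophil and progenitor markers ran from 14.21 to 16.69, with 14.71 in untreated WT and 15.97 in untreated Ifnar1-/- cells. Single markers of this list went in different directions. S100a9 lay at 10.01 to 14.54 in WT and 14.9 to 15.98 in Ifnar1-/- arrays, whereas Ly6g lay at 6.81 to 12.31 and 2.75 to 5.14. The part of these markers in the differences between genotypes was not tested.

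Caspase inhibition alone gave no call among the members. With zVAD limma called 0 members in WT cells, where 0.00622% of all genes were called, and 4 members had an unadjusted p under 0.05. Ifnar1-/- cells also had 0 members called (0% of all genes), and none had an unadjusted p under 0.05. Insig1 alone was called in WT cells with the slide as a block (1.14, adjusted p = 0.0481).

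LPS+zVAD raised 6 members and lowered 12 in WT cells relative to untreated cells, where 18.3% of all genes rose and 32.6% fell. The largest changes were in Ch25h, Scd2, Insig1, Dhcr7, Elovl6 and Fads1. The median over the members was -0.37 against -0.15 over all genes, and with the 75th percentile scaling 7 members rose and 8 fell. The counts in Ifnar1-/- cells were 5 that rose and 4 that fell, where 11% and 17.2% of all genes did. The members that rose were Insig1, Mvd, Acat2, Sc5d and Insig2, and those that fell were Abcg1, Dhcr7, Fads1 and Ebp. The count there was 9 rising and 7 falling with the slide as a block, and 5 in all without untreated replicate 2 or LPS+zVAD replicate 1.

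The addition of zVAD to LPS raised Insig1 and, by its brightest probe, Srebf2 in WT cells. In all 5 members rose and 9 fell, where 12.9% and 21.7% of all genes did, and of the 16 cholesterol synthesis enzymes 3 fell, Fdps, Nsdhl and Mvk, and 0 rose. With any 1 array left out only the calls of Insig1, Srebf2, Nr1h2 and Fads1 were kept throughout. The largest differences were in Ch25h, Insig1, Nr1h3, Scd2 (-1.93 ± 0.47, adjusted p = 0.00355), Fdps (-1.71 ± 0.52, adjusted p = 0.0148) and Srebf2 (1.6 ± 0.26, adjusted p = 0.000116), for which the second probe gave -0.07. Fads1 rose by 1.19 ± 0.25 (adjusted p = 0.000983), with arrays at 8.69 and 8.75 with LPS and 9.93 and 9.9 with LPS+zVAD. The slide block gave 7 that rose and 16 that fell, without LPS replicate 2 there were 7 calls and without LPS+zVAD replicate 2 there were 4. Among Ifnar1-/- arrays 4 members rose, Insig1, Insig2, Srebf2 and Npc2, and 2 fell, Mvk (-1.66 ± 0.35, adjusted p = 0.00617) and Scap (-0.53 ± 0.16, adjusted p = 0.046), where 4.58% and 3.67% of all genes did. The rises there were 0.95 ± 0.22 (adjusted p = 0.0102) for Insig2, 0.88 ± 0.26 (adjusted p = 0.046) for Srebf2, for which the second probe gave -0.13, and 0.66 ± 0.18 (adjusted p = 0.0304) for Npc2. With the slide as a block the counts were 5 and 7, with the 75th percentile scaling 2 and 2, and leaving out each of the 4 arrays in turn gave 1 or 2 calls, Insig1 among them.

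Nec-1 added to LPS+zVAD moved Insig1 back towards its level with LPS in WT cells. In Ifnar1-/- cells it moved Insig1 to 9.72 and 9.01, below its level with LPS (10.12 and 10.28). In WT cells 5 members rose and 5 fell, where 18.6% and 9.77% of all genes did. Those that rose were Ch25h (2.42 ± 0.83, adjusted p = 0.0348), Fdps (1.49 ± 0.52, adjusted p = 0.0366), Nsdhl (1.45 ± 0.4, adjusted p = 0.0107), Mvk and Nr1h2, and those that fell were Insig1, Srebf2 (-1.21 ± 0.26, adjusted p = 0.00179), Fasn (-1.16 ± 0.41, adjusted p = 0.0424), Elovl6 and Fads1. The second Srebf2 probe gave -0.29. The slide block gave 10 that rose and 9 that fell, and without LPS+zVAD replicate 2 there were 3 calls. Among Ifnar1-/- arrays 2 members rose, Dhcr7 (1.5 ± 0.33, adjusted p = 0.00396) and Fads1 (0.94 ± 0.25, adjusted p = 0.0142), and 3 fell, Insig1, Ch25h (at least 6.36-fold, -2.67 ± 0.83, adjusted p = 0.0311) and Sc5d (-0.87 ± 0.26, adjusted p = 0.0265), where 11.1% and 7.64% of all genes did. These rest on the pair of arrays that stood apart: there were 12 calls without LPS+zVAD+Nec-1 replicate 1 and 1 call, Insig1, without replicate 2, against 1 and 2 calls without LPS+zVAD replicate 1 and replicate 2. The median difference of the cholesterol synthesis enzymes from untreated cells was 0.764 in LPS+zVAD+Nec-1 replicate 1 and -0.29 in replicate 2. It was -0.395 and -0.39 with IFNβ+zVAD+Nec-1. Fads1 stood at 11.37 and 12.27, against 12.18 and 12.31 with IFNβ+zVAD+Nec-1, and Abcg1 at 12.42 and 14.79, against 14.84 and 14.71. Replicate 2 thus lay near the arrays without LPS for these genes, and the reason was not tested. The slide block gave 7 that rose and 7 that fell.

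When zVAD was added to IFNβ, no member was called in either genotype. IFNβ+zVAD raised 2 members, Ch25h and Insig1 (0.99 ± 0.37, adjusted p = 0.0437), and lowered 15 in WT cells relative to untreated cells, where 14.4% and 23.1% of all genes changed. The largest falls were in Scd2, Elovl6, Fads1 (-3.09 ± 0.25, adjusted p = 3.33e-08), Fasn (-1.91 ± 0.41, adjusted p = 0.00125) and Stard4 (-1.8 ± 0.38, adjusted p = 0.00107). With the 75th percentile scaling 5 rose and 8 fell, and without untreated replicate 1 or IFNβ+zVAD replicate 2 there were 11 calls. Against IFNβ alone limma called 0 members in WT cells (0% of all genes), where 3 had an unadjusted p under 0.05. By limma, 0 members were called in Ifnar1-/- cells with IFNβ+zVAD against untreated cells and 0 against IFNβ (0.00622% of all genes in each), where 0 had an unadjusted p under 0.05. Nec-1 added to IFNβ+zVAD gave 0 calls by limma in WT cells (0% of all genes), where 0 members had an unadjusted p under 0.05, and 0 calls in Ifnar1-/- cells (1.57% of all genes), where 4 did.

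Other sterol and lipid genes of a separate list, 37 of 39 of which were tested, moved in both directions. LPS raised 6 and lowered 12 of them in WT cells, where 16.3% of all genes rose and 24.8% fell. In Ifnar1-/- cells it raised 10 and lowered 11, where 10.9% and 13.9% of all genes did. IFNβ raised 4 and lowered 16 in WT cells, where 13.7% and 21.6% of all genes did. By limma 0 were called with IFNβ in Ifnar1-/- cells (0% of all genes), where 0 had an unadjusted p under 0.05. Dgat2, which makes triglyceride, rose with LPS by a log2 fold change of 4.8 in WT and by 4.28 in Ifnar1-/- cells. Acsl1, which activates fatty acids, rose by 3.38 and 4.03. Lpin1, a phosphatidate phosphatase, fell, with log2 fold changes of -6.13 in WT and -3.85 in Ifnar1-/- cells, as did Cyp27a1, the mitochondrial sterol hydroxylase, with -3.15 and -3.46. Soat1, which esterifies cholesterol, had log2 fold changes of -2.06 and -2.34, and Lipa, the lysosomal acid lipase, of -2.27 and -1.65, in WT and Ifnar1-/- cells in turn. With IFNβ in WT cells, Dgat2 rose by 2.79, and Lpin1 and Lipa fell (log2 fold changes of -4.91 and -1.52).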

How the data were processed

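RNA of 32 BMDM samples was isolated with RNeasy columns, labelled with Cy3 by the one-colour low input method and hybridized to Agilent arrays of 55681 probes. Per the file headers, Feature Extraction 11.5.1.1 made the deposited processed spot intensity values with local background correction off and spatial and multiplicative detrending on, and probe coordinates are mm9. The authors' deposited table of log2 values, which per the study's methods had probes above background on at least 50% of arrays, background subtraction, quantile normalization and a filter on low expression, and for which the submitters' notes name limma (version not given), served as an alternative.

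Outlier spots (130 to 499 per array) were left out, log2 intensities of replicate spots were averaged, and the averages were quantile-normalized between arrays. Probes well above background on at least 50% of the arrays were retained (21496 of 33140 with a gene symbol). The brightest probe stood for each of 16065 genes; of the 39 members, 24 had 1 probe and 15 had several, and 54 of 57 member probes were retained. All 16 groups were fitted with limma 3.58.1 in R 4.3.3, with 16 residual degrees of freedom and Benjamini-Hochberg adjustment over all genes. The number of arrays limits the precision. The fit was tested on simulated data with known changes. Their noise was independent between arrays, so the slide effect described below was not part of that test.

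Slides, known from the file headers, pair arrays of a replicate number: deviations from group means correlated on the same slide at r = 0.319 to 0.67 in WT (median 0.485 over 28 pairs of groups) and 0.168 to 0.574 in Ifnar1-/- arrays (median 0.439), so a fit with the slide as a block was set beside the results. Further alternatives were a 75th percentile shift, normexp correction with an offset of 50, no filter, the mean of the probes of a gene, only the arrays compared, and leaving out each array in turn.

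The members, the gene lists and the rule for the genes described in full were chosen with earlier results of these data known. By that rule every array was given for 17 genes that stand for the roles, and up to 6 called members with the largest change were named in each comparison; Mvd, Dhcr7, Hsd17b7, Elovl6 and Fads1 were added in full, and Acat2 in part, after their values were seen. Where in its transcript a probe lies was not analysed here.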

Additional observations from a re-analysis of the deposited data

Results flagged for a closer look

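The responses of the genotypes to a treatment differed by the interaction term in the following cases, each given as the log2 response in Ifnar1-/- cells minus that in WT cells. With LPS the values were 2.52 for Mvd, 1.11 for Scap, 2.59 for Scd2, 2.81 for Elovl6 and 1.51 for Fads1. With IFNβ they were 2.76 for Mvd, 1.76 for Dhcr7, 0.71 for Scap, 1.85 for Stard4, -8.55 for Ch25h, 3.91 for Scd2, 2.64 for Elovl6, 3.44 for Fads1 and 1.93 for Fads2. With LPS+zVAD they were 1.9 for Mvd, -1.25 for Srebf2, 1.11 for Scap, 1.75 for Stard4, 0.77 for Nr1h2 and 4.1 for Scd2. With IFNβ+zVAD they were 2.26 for Mvd, 1.51 for Dhcr7, 0.97 for Scap, 1.96 for Stard4, -7.27 for Ch25h, 4.3 for Scd2, 3.48 for Elovl6 and 3.21 for Fads1.

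With any 1 array left out, the calls of Mvd, Scap and Elovl6 with LPS, of Mvd, Ch25h, Scd2, Elovl6 and Fads1 with IFNβ, of Scap and Scd2 with LPS+zVAD, and of Mvd, Scap, Ch25h, Scd2, Elovl6 and Fads1 with IFNβ+zVAD were kept. The second probe of Stard4 gave 0.35 with IFNβ, 0.14 with LPS+zVAD and -0.23 with IFNβ+zVAD, and the second probe of Srebf2 gave -0.39 with LPS+zVAD. The Ch25h values rest on Ifnar1-/- arrays that were not well above background. Arrays without treatment are shared by all 4 comparisons, so their values are not independent.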

How the results depend on the processing

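Counts of members called kept within 1.5 times of the value in the report except as follows, and in each case the cause was not tested beyond what the alternative itself changes. With the slide as a replicate block, all calls were kept and counts rose to 1 for zVAD in WT cells, 23 for LPS+zVAD against LPS and 19 for Nec-1 with LPS+zVAD in WT cells, 16, 12 and 14 for LPS+zVAD, LPS+zVAD against LPS and Nec-1 with LPS+zVAD in Ifnar1-/- cells, and 15, 14, 17 and 16 for the differences between genotypes in the response to LPS, IFNβ, LPS+zVAD and IFNβ+zVAD. With only the arrays of the groups compared, which leaves few degrees of freedom, they were 11 for LPS, 9 for IFNβ, 8 for IFNβ+zVAD, 1 for LPS+zVAD against LPS and 0 for Nec-1 with LPS+zVAD in WT cells, 17, 11 and 0 for LPS+zVAD, LPS+zVAD against LPS and Nec-1 in Ifnar1-/- cells, 3 for the differences in the response to LPS and to LPS+zVAD, and 11 between the genotypes with LPS+zVAD. The authors' table gave 14 for LPS and 3 for Nec-1 with LPS+zVAD in Ifnar1-/- cells, and no filter on dim probes gave 6 for Nec-1 with LPS+zVAD in WT cells and 3 for LPS+zVAD against LPS in Ifnar1-/- cells. Without both Nec-1 arrays of Ifnar1-/- cells with LPS+zVAD, an alternative chosen after seeing the data, 9 members differed in the response to LPS, with 177 of 177 single calls kept.

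With 1 array left out at a time the counts in WT cells were 12 to 17 for LPS, 10 to 15 for IFNβ, 0 for zVAD, 15 to 18 for LPS+zVAD, 11 to 14 for IFNβ+zVAD, 4 to 19 for LPS+zVAD against LPS and 3 to 14 for Nec-1 with LPS+zVAD. In Ifnar1-/- cells they were 8 to 11 for LPS, 5 to 7 for LPS+zVAD, 1 to 2 for LPS+zVAD against LPS and 1 to 12 for Nec-1 with LPS+zVAD. For the differences between responses they were 3 to 8 with LPS, 6 to 8 with IFNβ, 2 to 10 with LPS+zVAD and 6 to 9 with IFNβ+zVAD, and between genotypes 1 to 3 in untreated cells and 11 to 20 with LPS+zVAD. The other comparisons stayed at 0.

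The split of higher and lower calls moved by over 10 points with normexp (3 and 3 for LPS+zVAD against LPS in Ifnar1-/- cells, and 5 and 1 and 5 and 2 for the differences in the response to LPS and LPS+zVAD), with the authors' table (3 and 11 for LPS+zVAD against LPS in WT cells, 7 and 3 for LPS+zVAD and 2 and 2 for LPS+zVAD against LPS in Ifnar1-/- cells, and 4 and 1 for the difference in the response to LPS) and with no filter (2 and 4 for Nec-1 with LPS+zVAD in WT cells). Of the single calls, the direction turned for Acly with LPS+zVAD in WT cells (0.058) and Nr1h2 between genotypes with LPS+zVAD (-0.084) under the 75th percentile shift, and for Srebf2 with LPS in Ifnar1-/- cells (0.20) under the mean of its probes. The shift lost 38 of 182 calls, normexp 22 of 182, the authors' values 29 of 168, no filter 33 of 182, the mean of probes 24 of 182, only the arrays compared 78 of 182, and leaving out 1 array 276 of 840, each with the direction kept. Dim signal limits Ch25h in Ifnar1-/- cells and Fasn in WT cells.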
